A study of Mus musculus with 19 samples.

Results

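The kinases that LKB1 phosphorylates were examined at the RNA level in neoplastic cells from mouse lung tumors. The set is defined by gene symbol and holds 9 genes, *Prkaa1*, *Prkaa2*, *Mark1*, *Mark2*, *Mark3*, *Mark4*, *Nuak1*, *Nuak2* and *Snrk*, out of 53558 genes in the deposited tables. All tumors arose in mice of a mixed C57BL/6J:129 background with the alleles R26 LSL-tdTomato and H11 LSL-Cas9, in which viral Cre switches on a red fluorescent protein and the Cas9 nuclease in the same cells, so that the control tumors carry both too. Mice were 6 to 12 weeks old when a lentivirus with Cre and guide RNAs was delivered to the lung, and tumors grew for 17 weeks. The guides were inert (sgInert, 7 libraries), directed at *Stk11*, the mouse gene of LKB1 (sgLkb1, 5 libraries), or directed at the C/EBP transcription factor genes *Cebpa*, *Cebpb* and *Cebpd* (sgCebpa/b/d, 7 libraries). Cre and guides came from the virus, so any lung cell that it infected could give rise to the tumor, and Cas9 leaves a mixture of edits in each target. The sort for neoplastic cells removed dead cells and cells with hematopoietic or endothelial surface markers.

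LKB1 is a tumor suppressor of lung adenocarcinoma that acts as a master kinase. It switches on AMPK and a group of related kinases by phosphorylating 1 threonine in the activation loop (T-loop) of each. AMPK is the cell's energy sensor, a trimer of a catalytic alpha, a scaffolding beta and a nucleotide-binding gamma subunit, and *Prkaa1* and *Prkaa2* encode alternative catalytic subunits. The MARK kinases act on microtubule-associated proteins and cell polarity, the NUAK kinases act on myosin phosphatase and cell adhesion, and SNRK is a more distant relative. This control works on protein, and RNA levels do not report kinase activity.

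The T-loop codons are shown because the threonine they encode is the residue that makes these 9 genes LKB1 substrates. Each window holds 30 bases of the coding strand, 5′ to 3′, from a GENCODE transcript of GRCm38, with the threonine codon in capitals.
Prkaa1: tttttaagaACAagctgtggctcacccaat
Prkaa2: tttctacgaACTagctgtggatcgccaaat
Mark1: aaattggacACAttctgtggaagcccgcct
Mark2: aagctggatACTttctgtggcagtcctcct
Mark3: aaactagacACGttttgtggtagtcctcca
Mark4: aagctggacACCttctgtgggagcccccca
Nuak1: ttcttgcaaACAttttgtgggagcccactc
Nuak2: ttcctccagACGttctgtgggagccctctc
Snrk: aaactcaccACGagctgcgggtctcttgca

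The *Prkaa1* codon lies at chr15:5169967-5169969 on the plus strand, in coding exon sequence of exon 5, and encodes residue 183 of the transcript's protein. The *Prkaa2* codon lies at chr4:105049381-105049383 on the minus strand, also in exon 5, and encodes residue 172. The windows of these catalytic AMPK genes shared 24 of 30 bases, while the windows of the other 7 genes shared 12 to 15 bases with *Prkaa2*. All 9 windows carried a threonine codon at this place, in the forms ACA, ACT, ACG and ACC. No exon of the 9 genes overlapped an exon of another gene in the annotation, and the files list a posterior SD of the read assignment of 0 for 8 of the 9 genes and of at most 0.33 counts for *Snrk*, so that reads were hardly divided with other genes.

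Libraries held 2760722 to 9944131 estimated counts. *Stk11*, the target of sgLkb1, had 7.53 to 12.5 counts scaled by normalized library size (CPM) in the 5 sgLkb1 libraries. In the 7 sgInert libraries it had more, 19.5 to 22.9 CPM. Its log2 fold change was -1.24 ± 0.17 (SE, edgeR adjusted p = 1.07e-04). The 9 markers of alveolar type II cells, the surfactant-producing cells that these tumors resemble, summed to 58500 to 70800 CPM in sgInert, 38200 to 50200 in sgLkb1 and 33300 to 61000 in sgCebpa/b/d, and 4 of 9 passed the test described below as lower in each targeted context. Of all genes tested, 2.97% in sgLkb1 and 5.36% in sgCebpa/b/d passed as lower, and 5.78% and 10.1% in either direction. Markers of other cells were low but not absent. The 8 fibroblast markers summed to 11.1 to 153 CPM in sgInert, 97.2 to 254 in sgLkb1 and 62.8 to 242 in sgCebpa/b/d, with *Col3a1* and *Dcn* past the test as higher in both. The 8 endothelial markers summed to 11.9 to 57.7, 57.0 to 222 and 20.9 to 296 CPM in the same order. All 8 had positive log2 fold changes in sgLkb1 and in sgCebpa/b/d, where 1 and 5 of 8 passed the test as higher. The 8 immune markers summed to at most 24.4, 65.4 and 72.8 CPM in that order. The 4 alveolar type I markers summed to medians of 413, 548 and 852 CPM, with 0 of 4 past the test in sgLkb1 and 4 of 4 past it as higher in sgCebpa/b/d. Of the immune markers, *Adgre1*, *Cd3e* and *Cd79a* had at most 3 counts in every sgInert library and *Cd79a* in every sgCebpa/b/d library. In bulk RNA, fewer cells of a type and less RNA per cell cannot be told apart. By their titles the libraries fall into a ZR series (4 sgInert), an MT series (3 sgInert, 4 sgCebpa/b/d and 3 sgLkb1) and those with no animal number (3 sgCebpa/b/d and 2 sgLkb1). Of the MT series 2 sgInert, 3 sgCebpa/b/d and 2 sgLkb1 libraries share an animal within their group, so n counts libraries and not animals. All sgLkb1 libraries, 4 of sgCebpa/b/d and 3 of sgInert came from females.

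The 9 kinases covered a wide range of levels per length. In sgInert the mean level in TPM, a share of all transcripts corrected for gene length, was 82.4 ± 58.0 (SD, n = 7) for *Mark2*, 42.1 ± 3.78 for *Mark3*, 39.2 ± 8.77 for *Snrk*, 24.8 ± 3.15 for *Prkaa1* and 14.3 ± 2.82 for *Prkaa2*. Below these came *Nuak2* with 4.91 ± 1.59 TPM, *Mark4* with 2.65 ± 0.559, *Mark1* with 0.720 ± 1.51 and *Nuak1* with 0.697 ± 0.181. Most neighbours in this order overlapped in their spread over libraries, and the clear step in sgInert was from *Prkaa2* (10.4 TPM or more) down to *Nuak2* (7.45 TPM or less). In sgLkb1 *Nuak2* (8.99 ± 1.70 TPM, n = 5) and *Prkaa2* (8.39 ± 0.531 TPM) changed places, and their libraries overlapped. *Mark2* varied most in TPM, from 31.1 to 222 over the 19 libraries. Its log2 CPM, which is scaled by normalized library size and not by length, ran from 4.99 to 6.77. Its effective length, which follows the estimated mixture of transcripts, ran from 662 to 1575 bases. The levels of the less abundant kinases rest on few reads, with 0 to 31 counts per library for *Mark1* and 9 to 60 for *Nuak1*.

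**Figure D1:**
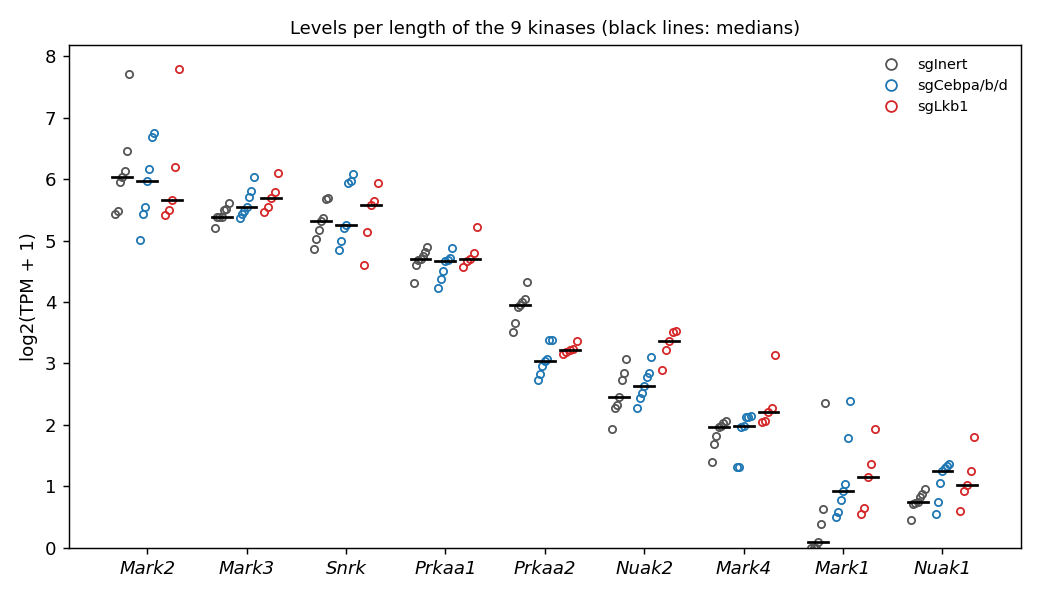
Level of each of the 9 kinases as log2(TPM + 1) in every library, with 1 circle per library (7 sgInert in grey, 7 sgCebpa/b/d in blue, 5 sgLkb1 in red) and black lines at the group medians. The genes are ordered by their mean TPM over the 19 libraries, from *Mark2* down to *Nuak1*, and *Prkaa2* is the gene whose blue and red circles all lie below the grey ones.

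*Prkaa2* was the 1 kinase of the set that passed the test against sgInert, and it was lower in both targeted contexts. The test was edgeR's quasi-likelihood test on counts with p-values adjusted over 13986 genes, and an adjusted p under 0.05 counted as past it. Of all genes tested, 5.78% passed in sgLkb1 against sgInert (2.97% lower) and 10.1% in sgCebpa/b/d against sgInert (5.36% lower), beside 1 of 9 kinases in each. In the sgInert libraries *Prkaa2* had log2 CPM of 6.48, 6.06, 6.53, 6.79, 6.12, 6.59 and 6.49, in replicate order. In sgLkb1 it had 5.37, 5.49, 5.52, 5.38 and 5.70, and in sgCebpa/b/d 5.30, 5.15, 5.12, 5.33, 5.95, 5.82 and 5.78. All 12 targeted libraries lay below all 7 sgInert libraries, which held for 0.636% of the genes tested (2.00% in sgLkb1 alone and 2.09% in sgCebpa/b/d alone). The targeted groups overlapped each other. The log2 fold change was -0.97 ± 0.16 (SE, edgeR adjusted p = 6.75e-04) in sgLkb1, which is 51.1% of the sgInert level (95% interval 40.6% to 64.4%). In sgCebpa/b/d it was -0.93 ± 0.14 (edgeR adjusted p = 1.63e-04), or 52.5% (42.7% to 64.6%). Both values fell short of an absolute log2 fold change above 1, which 3.01% and 4.65% of all genes passed along with the test. The 2 comparisons share the sgInert libraries, so they are not independent of each other. Between sgCebpa/b/d and sgLkb1 the difference of *Prkaa2* was 0.04 with a 95% interval of -0.29 to 0.36 (edgeR adjusted p = 0.929), which leaves room for a difference of either sign within those limits.

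**Figure D2:**
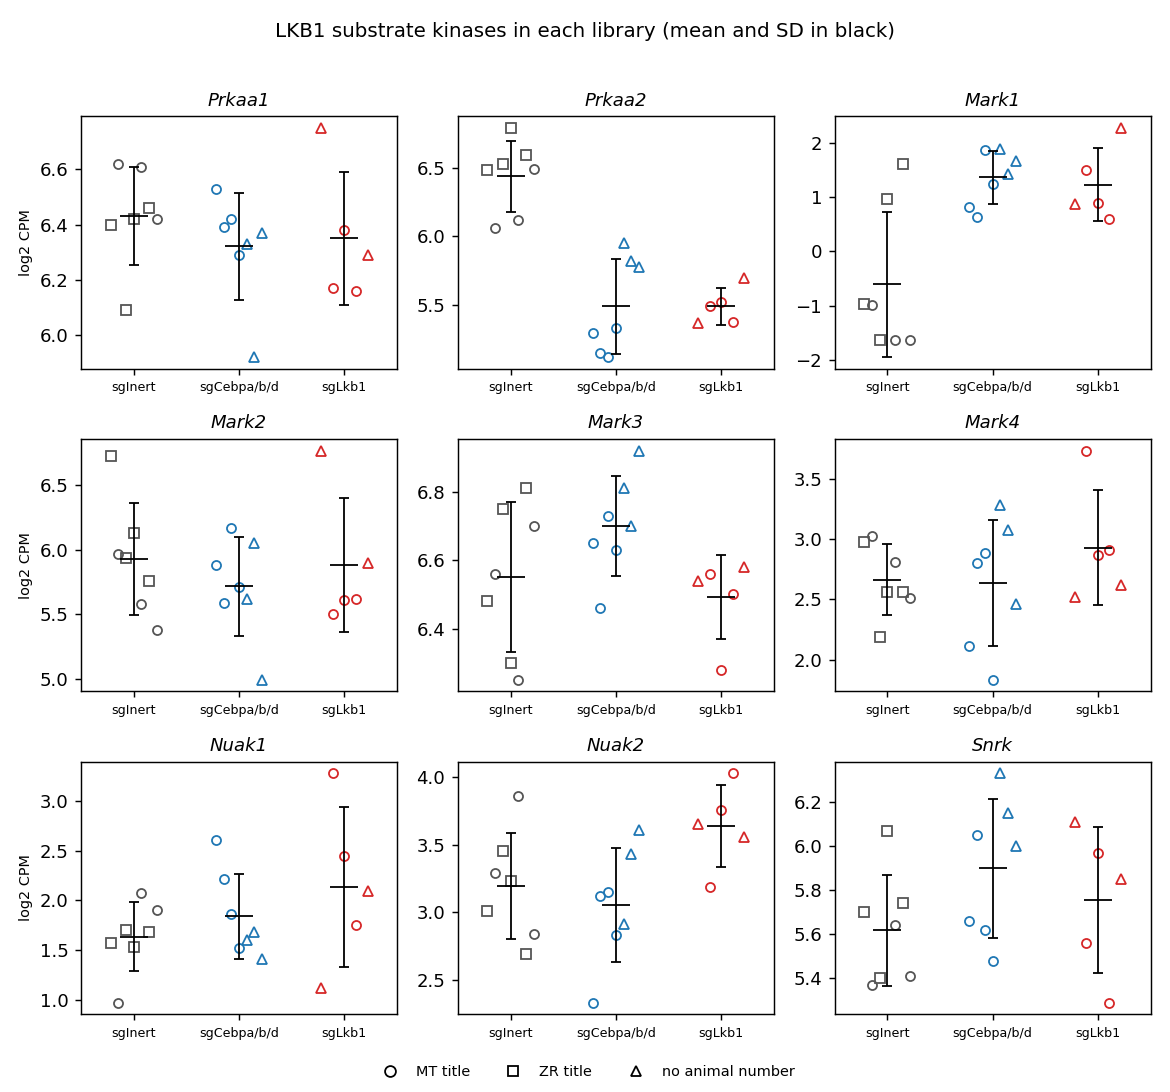
Log2 CPM of the 9 kinases in each library, by group, with the mean and SD in black and the shape giving the kind of library title (circles MT, squares ZR, triangles no animal number). Each panel has its own vertical scale, and *Prkaa2* is the panel in which every sgInert library (6.06 or more) lies above every targeted library (5.95 or less).

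The MT series is the 1 title series that holds all 3 groups, and *Prkaa2* was lower there too. Its log2 CPM was 6.06 to 6.49 in 3 sgInert, 5.38 to 5.52 in 3 sgLkb1 and 5.12 to 5.33 in 4 sgCebpa/b/d libraries. Within this series *Prkaa2* was lower by log2 fold changes of -0.79 in sgLkb1 (edgeR adjusted p = 0.00456) and -1.02 in sgCebpa/b/d (edgeR adjusted p = 4.41e-04). All libraries known to share an animal lie in this series, so these p-values count libraries and not animals. Among females alone the *Prkaa2* values were -0.87 and -1.15, and with the libraries of 1 animal summed to 1 sample -1.02 and -0.89, all past the test. The female sgCebpa/b/d libraries are the same 4 as in the MT series, so the female and MT settings are not separate checks. Over 14 other settings the *Prkaa2* values ran from -1.02 to -0.68 in sgLkb1 and from -1.24 to -0.85 in sgCebpa/b/d, with adjusted p of at most 0.0161 and 0.00174. Within sgCebpa/b/d the 4 female libraries of the MT series (5.12 to 5.33) lay below the 3 male libraries without a number (5.78 to 5.95), and there sex and the kind of title cannot be told apart. The effect of sgCebpa/b/d was not shown to differ between sexes for any of the 8 kinases tested for it with edgeR (0 with an adjusted p under 0.05, lowest unadjusted p 0.0357, lowest adjusted p 0.41). Alveolar type II, fibroblast and endothelial markers moved with the groups as given above, and their part in the *Prkaa2* difference was not tested.

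*Prkaa1*, which encodes the other catalytic subunit, stayed close to its sgInert level in both contexts. Its log2 CPM was 6.09 to 6.62 (median 6.42) in sgInert, 6.16 to 6.75 (median 6.29) in sgLkb1 and 5.92 to 6.53 (median 6.37) in sgCebpa/b/d, and the groups overlapped. The log2 fold changes were -0.08 (95% interval -0.33 to 0.17, edgeR adjusted p = 0.811) and -0.11 (-0.34 to 0.12, edgeR adjusted p = 0.612). *Prkaa1* has a gene span of chr15:5143861-5181899 on the plus strand, and *Prkaa2* one of chr4:105029874-105109890 on the minus strand. Per length, *Prkaa1* exceeded *Prkaa2* in all 19 libraries. *Prkaa2* made up 27.7% to 43.6% (median 37.6%) of the summed TPM of both genes in sgInert, 17.9% to 27.5% (median 24.8%) in sgLkb1 and 18.7% to 34.7% (median 22.5%) in sgCebpa/b/d. The shares of sgLkb1 lay below all those of sgInert by a narrow margin, and the shares of sgCebpa/b/d overlapped them. The sum of both genes was 39.1 ± 3.57 TPM (SD, n = 7) in sgInert, 35.5 ± 5.13 (n = 5) in sgLkb1 and 30.6 ± 2.77 (n = 7) in sgCebpa/b/d.

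**Figure D3:**
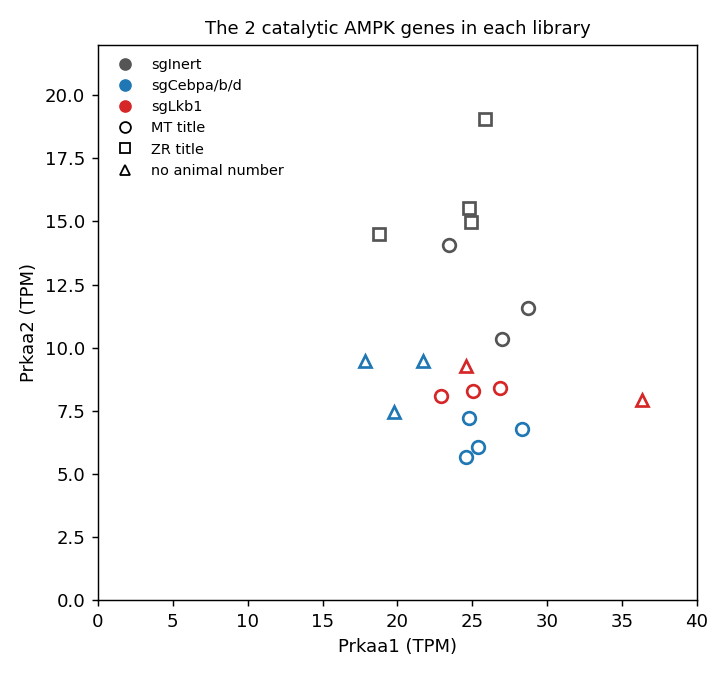
TPM of *Prkaa2* (vertical) against TPM of *Prkaa1* (horizontal), with 1 symbol per library, colour for the group and shape for the kind of library title. The groups separate along the vertical axis, where sgInert has 10.4 TPM or more and the targeted libraries 9.47 or less, and overlap on the horizontal axis.

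The 3 genes whose z-scored log2 CPM over the 19 libraries lay nearest to that of *Prkaa2* were *Mettl7a1*, *Snx25* and *Ttn*, with root mean square differences of 0.424, 0.506 and 0.511, where the median over all genes tested was 1.43. *Mettl7a1* had log2 fold changes of -0.90 in sgLkb1 and -0.97 in sgCebpa/b/d. *Snx25* had -0.42 and -0.43, and *Ttn* -1.96 and -1.57. Nearness here is a description over libraries that share their groups.

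The promoter of *Prkaa2* is shown because this is the gene whose RNA differed. RefSeq gives for GRCm38.p6 the window chr4:105109849-105110148 on the minus strand, from 250 bases before to 50 after the start of the gene. The capitals mark the 1 match to TGACG, the core of the cAMP response element, here read on the opposite strand.
Prkaa2 promoter: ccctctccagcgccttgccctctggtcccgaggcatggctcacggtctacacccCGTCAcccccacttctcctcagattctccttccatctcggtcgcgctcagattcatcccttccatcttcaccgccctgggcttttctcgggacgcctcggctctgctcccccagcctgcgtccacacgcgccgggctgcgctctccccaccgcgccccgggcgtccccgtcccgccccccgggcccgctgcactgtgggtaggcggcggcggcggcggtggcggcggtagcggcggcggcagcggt

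This window is 72.7% G and C. The core TGACG, searched on both strands, was found in 20.8% of 32851 promoters and in 6 of the 11 promoters listed for 7 of the kinases, namely those of *Mark2*, *Mark3*, *Prkaa2* and *Snrk*. The full element TGACGTCA, which contains the core, was in 1.79% of all promoters and in 0 of the 11, and the C/EBP core TTGCNNAA was in 10.8% of all promoters and in 0 of the 11. The letters not found in these windows say nothing of binding elsewhere. *Mark4* and *Nuak2* have no entry in the promoter table.

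No MARK kinase passed the test in either comparison with sgInert, and the values of the more abundant ones were close to sgInert. *Mark3* (chr12:111574523-111656221, plus strand) had log2 CPM of 6.25 to 6.81 in sgInert, 6.28 to 6.58 in sgLkb1 and 6.46 to 6.92 in sgCebpa/b/d, with log2 fold changes of -0.07 (95% interval -0.29 to 0.16) and 0.14 (-0.06 to 0.35). *Mark2* (chr19:7275396-7341860, minus strand) had 5.38 to 6.73, 5.50 to 6.77 and 4.99 to 6.17, with -0.02 (-0.52 to 0.48) and -0.24 (-0.70 to 0.22). *Mark4* (chr7:19424775-19458821, minus strand) had 2.19 to 3.03, 2.52 to 3.74 and 1.83 to 3.29, with 0.32 (-0.27 to 0.91) and 0.03 (-0.52 to 0.58). Across these 3 genes the edgeR adjusted p ran from 0.426 to 0.975, and the groups overlapped.

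*Mark1* (chr1:184896789-184999570, minus strand) stood apart from its relatives by its low counts. It had 1, 1, 0, 7, 0, 15 and 0 counts in the sgInert libraries, 13, 16, 10, 12 and 31 in sgLkb1, and 4, 12, 20, 12, 21, 14 and 17 in sgCebpa/b/d. Scaled by library size, the sgInert libraries with 7 and 15 counts (1.63 and 2.70 CPM) lay within the range of the targeted libraries (1.18 to 4.51 CPM), and the other 5 had at most 1 count. At least 10 counts were reached in 1 of 7 sgInert, 5 of 5 sgLkb1 and 6 of 7 sgCebpa/b/d libraries, so that *Mark1* passed the filter on low counts through the targeted libraries. The log2 fold changes were 1.70 ± 0.78 in sgLkb1 (95% interval 0.07 to 3.32, edgeR adjusted p = 0.244) and 1.79 ± 0.74 in sgCebpa/b/d (0.25 to 3.33, edgeR adjusted p = 0.139), which did not pass the test. The outcome turned on sgInert replicate 6, the library with 15 counts, and on the title series. Without that library the values were 2.77 (edgeR adjusted p = 0.0373) and 2.85 (edgeR adjusted p = 0.0161). With title series as a covariate and all libraries kept they were 4.54 (edgeR adjusted p = 0.0321) and 4.63 (edgeR adjusted p = 0.0191). In the MT series *Mark1* had 1 count in all in 3 sgInert libraries, 38 in 3 sgLkb1 and 48 in 4 sgCebpa/b/d libraries. There it passed the test in both comparisons (edgeR adjusted p = 0.0200 and 0.0115, over all alternatives 0.0200 to 0.718 and 0.0115 to 0.492). These calls rest on 1 sgInert count, and 2 of the 3 sgInert libraries share an animal. Since the filter kept *Mark1* through the targeted libraries, no rise is concluded from them. Fibroblast and endothelial markers were higher in the same targeted libraries at the CPM given above, and their part in the *Mark1* values was not tested.

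Neither NUAK kinase passed the test on counts. *Nuak2* (chr1:132316126-132333488, plus strand) had log2 CPM of 2.69 to 3.86 in sgInert, 3.19 to 4.03 in sgLkb1 and 2.33 to 3.61 in sgCebpa/b/d, and the groups overlapped. Its log2 fold change was 0.43 in sgLkb1 (95% interval -0.07 to 0.93, edgeR adjusted p = 0.356) and -0.14 in sgCebpa/b/d (-0.60 to 0.33, edgeR adjusted p = 0.777). Per length the difference in sgLkb1 was larger, with 6.40 to 10.5 TPM against 2.81 to 7.45 in sgInert, and limma on log2(TPM + 1) gave 0.78 with an adjusted p of 0.0288, where the adjusted p over 14 other settings ran from 0.0288 to 0.837. The effective length of *Nuak2* was 1541 to 2383 bases in sgLkb1 and 2105 to 2719 in sgInert, and TPM is corrected for it. With an offset for effective length, the count model gave 0.68 for *Nuak2* in sgLkb1 (edgeR adjusted p = 0.106). *Nuak1* (chr10:84370905-84440597, minus strand) had 0.97 to 2.07, 1.12 to 3.28 and 1.41 to 2.61 in the same order, with log2 fold changes of 0.70 (95% interval -0.06 to 1.47, edgeR adjusted p = 0.321) and 0.24 (-0.48 to 0.96, edgeR adjusted p = 0.743). *Nuak1* had 9 to 30 counts in sgInert and 16 to 60 in sgLkb1. Without sgLkb1 replicate 2, the library with 60 counts, its value in sgLkb1 was 0.29 (edgeR adjusted p = 0.769).

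*Snrk* (chr9:122117266-122169702, plus strand), among the most abundant of the 9 per length, had log2 CPM of 5.37 to 6.07 in sgInert, 5.29 to 6.11 in sgLkb1 and 5.48 to 6.33 in sgCebpa/b/d. Its log2 fold changes were 0.14 (95% interval -0.20 to 0.49, edgeR adjusted p = 0.720) and 0.29 (-0.02 to 0.61, edgeR adjusted p = 0.257). The groups overlapped. Within sgCebpa/b/d the male libraries, all without an animal number, had a *Snrk* log2 CPM of 6.00 to 6.33. The female libraries, all of the MT series, had 5.48 to 6.05, which overlapped. Sex and the kind of title cannot be told apart here.

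Between the targeted contexts themselves, sgCebpa/b/d against sgLkb1, 0 of the 9 kinases passed edgeR's test, where 5.96% of all genes did. Of the 9, 1 had an unadjusted p under 0.05, and DESeq2 and limma also called 0. That kinase was *Nuak2*, with a log2 fold change of -0.57 (95% interval -1.06 to -0.07, edgeR adjusted p = 0.193). The intervals of *Prkaa1* (-0.28 to 0.22) and *Mark3* (-0.01 to 0.44) were the narrowest, and that of *Mark1* (-1.45 to 1.63) was the widest. The median log2 fold change over the 9 kinases was 0.14 in sgLkb1 and 0.03 in sgCebpa/b/d against sgInert, beside -0.01 and 0.02 over all genes tested.

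**Figure D4:**
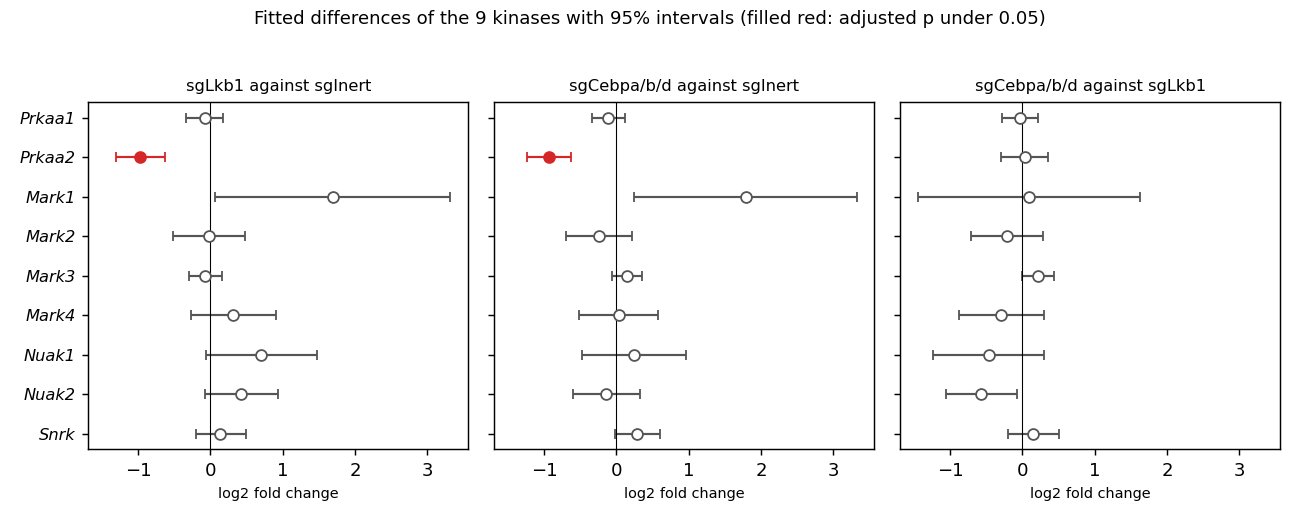
Fitted log2 fold change of each kinase in the 3 comparisons, with 95% intervals and filled red points where the adjusted p was under 0.05. *Prkaa2* is the only gene with filled points, near -1 in both comparisons with sgInert and at 0.04 between the targeted contexts, and *Mark1*, the gene with the fewest counts, has the widest bars.

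The pathway around these kinases was described with fixed lists of their regulators, relatives and substrates. In the LKB1 complex, whose pseudokinase and scaffold partners activate LKB1, 1 of 5 genes passed in sgLkb1, which was *Stk11* itself, and 0 of 5 in sgCebpa/b/d (0 with an unadjusted p under 0.05, and 0 by DESeq2 and by limma). The median log2 fold change of the complex, *Stk11* included, was -0.41 in sgLkb1 and -0.02 in sgCebpa/b/d. Over all genes tested it was -0.01 and 0.02. The partner genes without *Stk11* had -0.58 to 0.05 in sgLkb1. Of the 4 tested genes among the beta and gamma subunits of AMPK, 0 passed in either comparison with sgInert (0 with an unadjusted p under 0.05 in edgeR, and 0 by DESeq2 and limma), with medians of 0.07 and 0.17. *Prkag3*, a gamma subunit known from skeletal muscle, had at most 8 counts in a library and was not tested. Among 11 other upstream kinases and modulators of AMPK, such as the calcium-dependent kinase gene *Camkk2* and the sestrins, 0 passed edgeR's test in either comparison (2 and 1 with an unadjusted p under 0.05, and 0 by DESeq2 and limma), with medians of -0.24 and -0.10.

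The remaining LKB1 substrate kinases, the SIK and BRSK genes, included genes past the test as higher. *Sik1*, a salt-inducible kinase that restrains CRTC coactivators, had 25.4 to 68.7 CPM in sgInert, 77.4 to 131 in sgLkb1 and 42.5 to 93.5 in sgCebpa/b/d. The sgLkb1 libraries all exceeded the sgInert ones, a separation that 2.00% of all genes tested showed in the lower direction. *Sik1* rose in sgLkb1 by 1.38 ± 0.24 on the log2 scale (edgeR adjusted p = 8.79e-04). That call passed in 14 of 14 other settings and without any 1 of the 19 libraries. In sgCebpa/b/d its value was 0.70 ± 0.22 (edgeR adjusted p = 0.0457), a call near the threshold that was lost in 7 of 14 other settings and when any 1 of 12 libraries was left out, namely sgInert replicates 2, 3, 5, 6 and 7, sgCebpa/b/d replicates 2, 5, 6 and 7 and sgLkb1 replicates 2, 4 and 5 (0.59 to 0.72, adjusted p 0.0504 to 0.105). Among females alone it was 0.35. *Sik2* rose in sgCebpa/b/d, by 1.12 ± 0.31 (edgeR adjusted p = 0.0208), and its value in sgLkb1 was 0.93 ± 0.33 (edgeR adjusted p = 0.109). The *Sik2* call in sgCebpa/b/d was lost without replicate 6 (0.95) or 7 (1.00) of that group. It was also lost in 5 of 14 other settings, which were limma (0.86), females alone (1.11), the MT series alone (1.19), title series as a covariate (1.36) and all libraries without an animal number left out (0.72, edgeR adjusted p = 0.273). The *Sik2* value in sgLkb1 passed without sgInert replicate 6 (1.19, edgeR adjusted p = 0.0287, over all alternatives 0.0110 to 0.297). It also passed in 3 of 14 other settings. These were sex as a covariate (1.37, edgeR adjusted p = 0.0110), females alone (1.31, edgeR adjusted p = 0.0405) and replicate number as a block (1.22, edgeR adjusted p = 0.0287). *Brsk1*, a neuronal kinase, had at most 4 counts in a library and was not tested. Thus 1 of 4 tested genes passed as higher in sgLkb1 and 2 of 4 in sgCebpa/b/d. Of all genes tested, 5.78% and 10.1% passed in these comparisons in either direction.

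Among 13 genes of AMPK substrates, 2 passed in sgLkb1 and 3 in sgCebpa/b/d, in both directions. *Tbc1d4*, a Rab GTPase-activating protein of glucose transporter traffic, had 34.6 to 81.5 CPM in sgInert, 23.7 to 33.4 in sgLkb1 and 6.77 to 22.1 in sgCebpa/b/d, and the 3 groups did not overlap. It fell by 1.05 on the log2 scale in sgLkb1 (SE 0.23, edgeR adjusted p = 0.00871) and by 2.14 in sgCebpa/b/d (SE 0.22, edgeR adjusted p = 1.25e-06), and the difference between the targeted contexts was -1.09 (edgeR adjusted p = 0.00591). That difference was -0.89 without the libraries that have no animal number (edgeR adjusted p = 0.117). Its relative *Tbc1d1* had 2 to 12 counts in sgInert and 24 to 54 in sgLkb1. In sgLkb1 its log2 fold change was 1.77 ± 0.47 (edgeR adjusted p = 0.0273). The sgLkb1 libraries by themselves carry *Tbc1d1* past the filter on low counts, so no rise is concluded from that call. That call was lost when sgInert replicate 2, 5 or 7 or sgLkb1 replicate 1, 3 or 5 was left out (1.62 to 1.71, adjusted p 0.0504 to 0.0675). It was also lost in 2 of 14 other settings, with the libraries of 1 animal summed (1.65, edgeR adjusted p = 0.0757) and without the libraries that have no animal number (1.56, edgeR adjusted p = 0.150), and over all 14 the *Tbc1d1* value ran from 0.99 to 2.89. In sgCebpa/b/d *Tbc1d1* had 1.27 ± 0.45 (edgeR adjusted p = 0.0770), which passed without sgCebpa/b/d replicate 1 or replicate 2 (1.41 in each case). It also passed in 5 of 14 other settings, which were DESeq2, limma, an offset for effective length, and sex or title series as a covariate. Over all 14 this value ran from 0.58 to 2.08. *Acaca*, acetyl-CoA carboxylase of fatty acid synthesis, was lower in sgCebpa/b/d (115 to 143 CPM) than in sgInert (213 to 354) and sgLkb1 (207 to 259), with log2 fold changes of -0.96 ± 0.10 against sgInert (edgeR adjusted p = 1.66e-06) and -0.72 against sgLkb1 (edgeR adjusted p = 2.13e-04). The latter was -0.40 with an offset for effective length (edgeR adjusted p = 0.170). *Pfkfb3*, which makes an activator of glycolysis, rose in sgCebpa/b/d by 1.43 ± 0.29 (edgeR adjusted p = 0.00207). In sgLkb1 *Pfkfb3* had 0.83 ± 0.31 (edgeR adjusted p = 0.127), which passed in 1 of 14 other settings and without sgInert replicate 3 (1.09, edgeR adjusted p = 0.0245, over all alternatives up to 0.371).

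Of 8 substrates of MARK and NUAK kinases, 1 passed in sgLkb1 and 0 in sgCebpa/b/d (1 with an unadjusted p under 0.05, and 0 by DESeq2 and limma). *Kif13b*, a kinesin motor, was lower in sgLkb1 by -0.46 ± 0.12 on the log2 scale (edgeR adjusted p = 0.0287). This call was lost in 10 of 14 other settings and when sgInert replicate 1, 4, 6 or 7 or sgLkb1 replicate 1, 2 or 4 was left out (-0.46 to -0.41, adjusted p 0.0501 to 0.0944). Over the 6 lists together 5 of 45 tested genes (11.1%) passed in each comparison with sgInert, beside 5.78% and 10.1% of all genes. The 5 in sgLkb1 include *Stk11*, the target of the guides, whose call follows from the design. They also include *Tbc1d1*, whose low sgInert counts are given above.

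**Figure D5:**
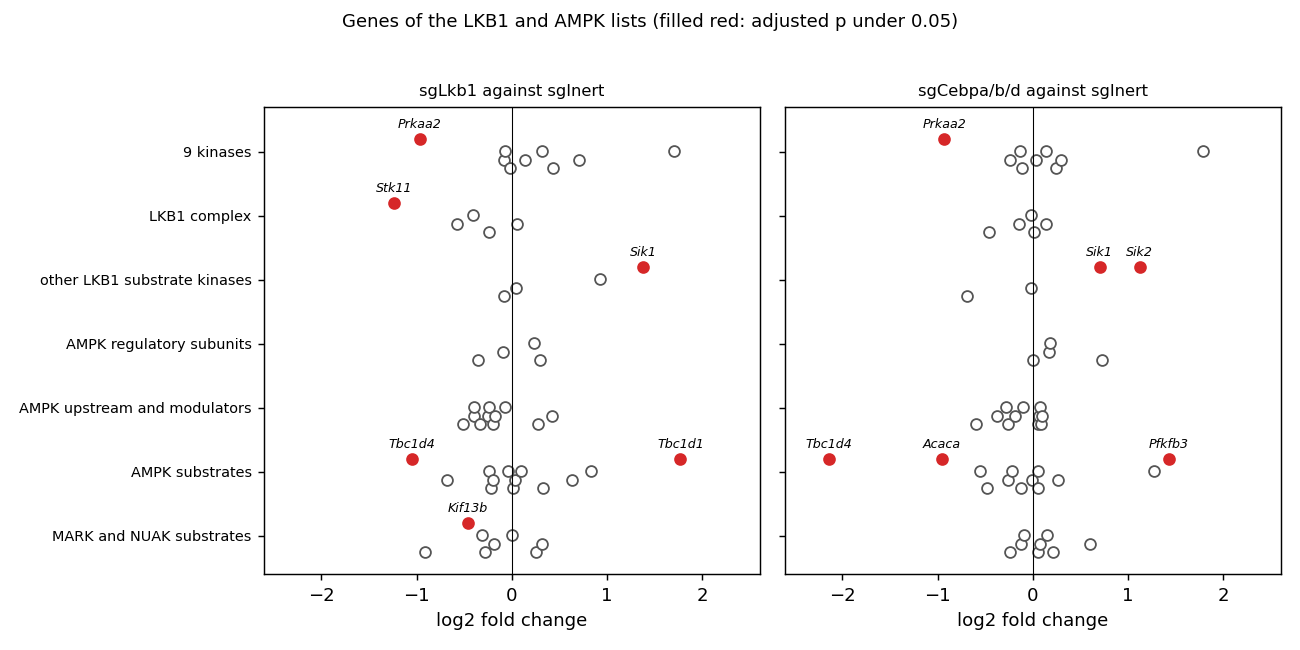
Log2 fold change against sgInert of each tested gene in the 9-kinase set and in 6 fixed lists, 1 row per list, with sgLkb1 on the left and sgCebpa/b/d on the right. Filled red points with names passed the test, and they lie on both sides of 0 among the AMPK substrates.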

How the data were processed

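Bulk RNA-seq of sorted neoplastic cells was analysed in 19 libraries. Per the labels and the study's methods, the authors made total RNA libraries with the Trio RNA-Seq kit, used STAR 2.6.1d and the mm10 build for alignment, and ran RSEM 1.2.30. The deposited expected counts per gene are unnormalized RSEM estimates and were rounded here. The deposited TPM values are the authors' length-corrected estimates. The authors' DESeq2 1.26.0 comparison tables (fold changes and p-values) and normalized table were not used.

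Low genes were dropped with filterByExpr at a minimum count of 10 and a minimum total of 15, and groups were compared with edgeR 4.0.16 (TMM, glmQLFit, glmQLFTest) in 1 model of all libraries, with Benjamini-Hochberg adjustment over 13986 genes. CPM and log2 CPM used library sizes multiplied by the TMM factors, and log2 CPM used a prior count of 2. The SE was derived from the fitted log2 fold change and the F statistic of the test. Intervals of 95% follow from this SE and the degrees of freedom of the fit. Alternatives used DESeq2 1.42.0, limma 3.58.1 on log2(TPM + 1), other filters, lengths, sex, title series, animals and left-out libraries. R 4.3.3 and Python 3.11.15 with matplotlib 3.10.9 were used, and the procedure was tested on simulated counts.

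The kinases and lists were chosen with earlier results of these data known. The text names all 9 kinases, every list gene with an adjusted p under 0.05 against sgInert, and the 3 genes nearest to such a kinase. Groups, replicate numbers and sexes came from the labels, and the title series from the titles. By their titles 7 libraries share an animal with another of their group, and for those with no animal number the animal is not stated. The p-values therefore measure the spread between libraries and not between animals. The mean chi-square per gene was at least 6.91 in all 52 pairs within groups, so no pair differed by less than the sampling noise. Reads of amplified libraries are not independent molecules. A further allele that all groups share is not reported here.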

Additional observations from a re-analysis of the deposited data

Results flagged for a closer look

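In 27 checks of 9 kinases in 3 groups, 3 libraries stood apart from the rest of their group by Dixon's criterion, which flags about 1 group in 20 by chance. *Prkaa1* in sgInert replicate 3 had a log2 CPM of 6.09, where the other 6 libraries had 6.40 to 6.62. *Prkaa1* in sgCebpa/b/d replicate 6 had 5.92, where the others had 6.29 to 6.53. *Mark3* in sgLkb1 replicate 3 had 6.28, where the others had 6.50 to 6.58.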

How the results depend on the processing

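The *Prkaa2* call held in both comparisons with sgInert under all 14 other settings and without any 1 of the 19 libraries. The number of the 9 kinases past the test in sgLkb1 against sgInert moved from 1 to 2 with limma on log2(TPM + 1), which added *Nuak2*, and from 1 to 2 among libraries with an MT number and with the title series as a covariate, which added *Mark1*. In sgCebpa/b/d against sgInert the same 2 title-series settings gave 2, again with *Mark1*. Leaving out 1 library gave 1 to 2 in each of these comparisons, and 0 in all cases between sgCebpa/b/d and sgLkb1. The order of mean TPM kept 9 of 9 places with CPM per kilobase, and 7 of 9 with 1 effective length per gene, an alternative chosen after seeing the data, which exchanged *Mark1* and *Nuak1*. Of 889 repeats for single kinases, 0 lost a call, 7 gained one and 64 changed sign without a call on either side. Of 792 for the other named genes, 53 lost and 20 gained a call. The alternative filter of at least 1 CPM in 5 libraries was planned as stricter but kept 15293 genes. With the replicate block the numbers past the test were 1, 1 and 0. Replicate numbers do not pair the libraries, since 2 of 17 same-numbered pairs had a correlation of deviations above 0.1 (-0.147 to 0.232) and a library correlated best with its own number in 5 of 34 checks. With the block *Sik1* in sgCebpa/b/d had 0.71 (edgeR adjusted p = 0.0845), *Sik2* in sgLkb1 1.22 (edgeR adjusted p = 0.0287) and *Kif13b* in sgLkb1 -0.43 (edgeR adjusted p = 0.103). *Mark1* and *Nuak1* had the fewest counts of the 9 kinases, at most 31 and 60 in a library.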
